A study of Drosophila melanogaster with 3 samples.

Results

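Genes for translation factors and aminoacyl-tRNA synthetases were scored for peaks of the homeobox transcription factor NK7.1 in Drosophila melanogaster embryos. They were chosen by symbol among 13945 protein-coding genes on 6 chromosome arms, X, 4 and the left and right arms of 2 and 3. Symbols starting with eIF, eEF or eRF were taken, as were those made of an amino acid's abbreviation and RS, with or without -m for the mitochondrial form. The rule found 86 genes: 44 initiation factors, 10 elongation or release factors, 17 cytoplasmic and 15 mitochondrial synthetases. No measured value entered the rule, but the genes were chosen with earlier results of these data known. The study was a ChIP-seq experiment on transgenic flies whose NK7.1 carries a GFP tag at its C-terminus, immunoprecipitated through the tag. It has 3 biological replicates of 1 group, pooled male and female embryos aged 0 to 24 hours, so no comparison between conditions was possible. All 3 come from the same tagged strain. Untagged embryos and input chromatin were not analysed here.

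Initiation factors bring the initiator tRNA, the mRNA and the ribosomal subunits together at the start codon. Elongation factors then deliver charged tRNAs and move the ribosome along the mRNA, and release factors end the chain at a stop codon. Each synthetase joins an amino acid to its tRNA, and the mitochondrial forms, also encoded in the nucleus, do so inside the organelle. Nearly every growing cell uses these genes. NK7.1 belongs to the NK family of homeodomain proteins. Homeodomains commonly bind short AT-rich DNA words with a TAAT core.

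A gene scored when the summit of a peak, its position of highest signal, lay in the gene body or within 2 kb of it. The reproducible set, which the authors derived by the irreproducible discovery rate (IDR), held 2475 peaks with signal values of 92.5 to 1837 and a median of 135. The signal value is the peak caller's own score, given by the authors, and was used only for description and ranking within a list. The pooled list, called on the 3 libraries together, held 26951 peaks, and the lists of replicates 1, 2 and 3 held 25801, 30000 and 30000. The lists hold no read counts, so sequencing depth is unknown, and they cannot show which cells of the whole embryo a peak came from.

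The sequences at some of the peaks show the range of sites near these genes. They come from the Release 6 (dm6) reference genome, run 5′ to 3′ on the strand named, cover up to 50 bp on either side of a summit and leave out untranslated regions. Capitals mark words from the motif search described with the motif counts. The strongest peak near any of the 86 genes lay upstream of eIF2Bbeta (chrX:2703853-2703935, plus strand), and its sequence held TAATTG. The strongest at an elongation factor lay at the start of eEF1gamma (chr3R:29220083-29220171, plus strand) and held TATCGATA. The strongest in a cytoplasmic synthetase window was counted for AlaRS (chr2L:8376841-8376941, minus strand). That in a mitochondrial synthetase window was counted for LeuRS-m (chr3L:4824868-4824968, plus strand). The AlaRS and LeuRS-m sequences held none of the words searched for.
eIF2Bbeta: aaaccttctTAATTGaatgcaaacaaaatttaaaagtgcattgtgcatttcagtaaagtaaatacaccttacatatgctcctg
eEF1gamma: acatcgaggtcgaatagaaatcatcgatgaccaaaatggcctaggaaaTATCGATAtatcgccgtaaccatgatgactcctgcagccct
AlaRS: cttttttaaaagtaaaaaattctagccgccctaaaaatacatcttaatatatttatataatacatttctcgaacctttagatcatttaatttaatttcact
LeuRS-m: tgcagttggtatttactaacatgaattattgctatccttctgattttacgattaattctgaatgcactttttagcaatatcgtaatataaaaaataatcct

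About 1 in 3 of the genes had a reproducible peak in or near them, a larger share than among protein-coding genes as a whole. Of the 86 genes, 31 scored (36.0%, exact Clopper-Pearson 95% interval 26 to 47.1%), against a background of 22.6% of all protein-coding genes. The interval covers counting only. The best placed were eIF2Bbeta with a signal of 1580.3, eEF1gamma with 463, eIF6 with 414 and AlaRS with 326. The other 55 genes had no reproducible summit in their window. The 31 genes drew on 38 distinct peaks, none shared between members, with 25 genes having 1 summit and 6 having more.

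The replicates gave similar counts when each was read alone. Among each replicate's own top 2475 peaks, a number equal to the size of the reproducible set, a summit fell in the windows of 33, 30 and 32 of the 86 genes in replicates 1, 2 and 3. These are 38.4, 34.9 and 37.2% of the genes, against 22.5, 22.6 and 22.9% of all protein-coding genes, so the share was above background in all 3. The mean was 36.8 ± 1.78% for the 86 genes and 22.7 ± 0.187% for all protein-coding genes (SD, n = 3 replicates). A top summit in all 3 replicates was found for 23 genes (26.7%), against 15.2% of all protein-coding genes. Those 23 were all among the 31 with a reproducible summit. Of the other 8, 5 had a top summit in 2 replicates and 3 in 1 replicate. A further 11 genes without a reproducible summit had a top summit in at least 1 replicate. Of the 38 peaks, 26 (68.4%) overlapped a top peak of every replicate, against 57.7% of the whole reproducible set.

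**Figure D1:**
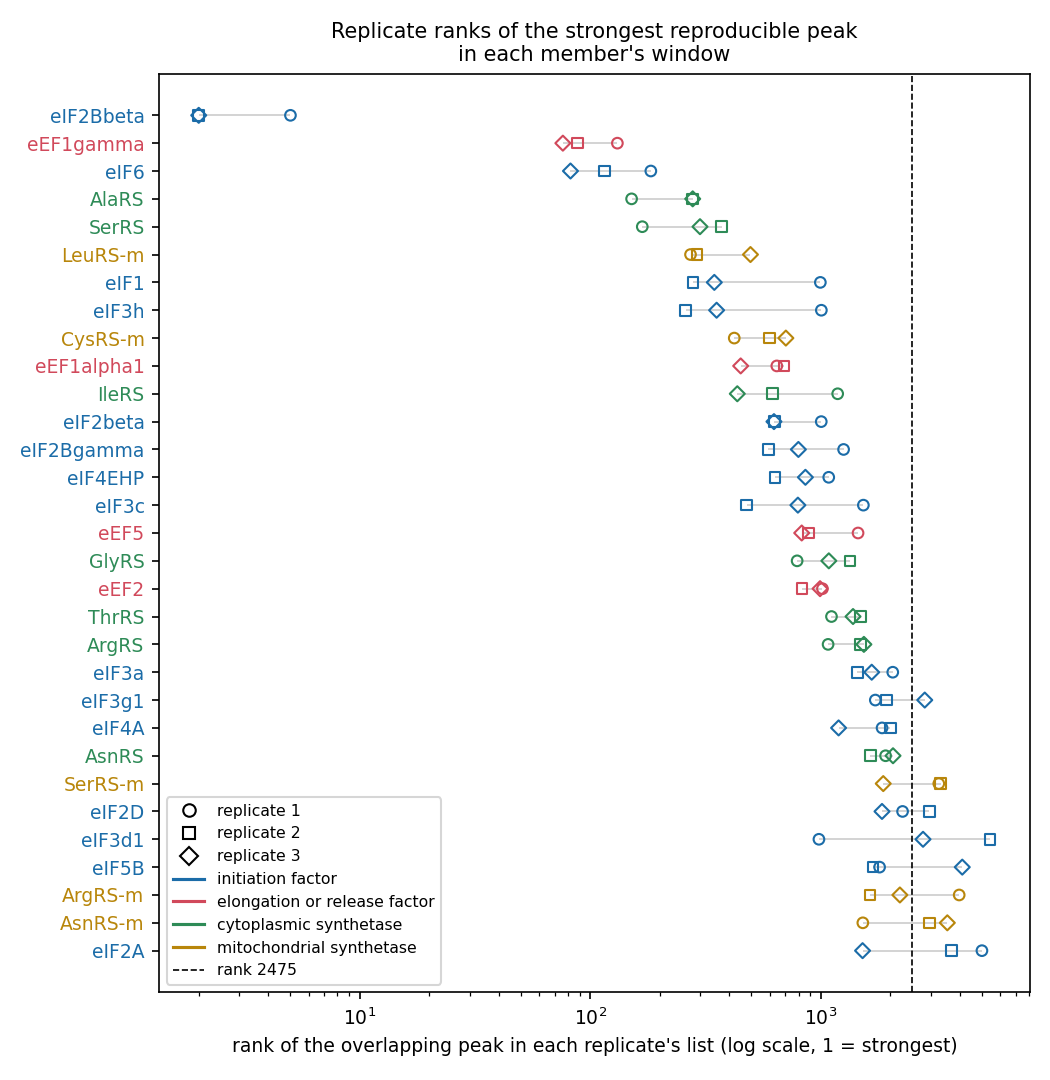
Rank of the strongest reproducible peak of each of the 31 genes in replicates 1, 2 and 3, on a log axis where 1 is the strongest peak of a list. Each gray line joins the 3 replicates of a gene, colors give the role, and the dashed line marks rank 2475; eIF2Bbeta ranked 5, 2 and 2, and the points of 23 genes all lie left of the line.

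The share was also above background at other depths, which are nested cuts of the same ranked list and not independent of each other. Among the 1000 strongest pooled peaks 18.6% of the 86 genes and 10.9% of all protein-coding genes had a summit. Among the 5000 strongest these shares were 53.5% (46 genes) and 37.1%. In the whole pooled list, which reaches down to entries submitted as background for IDR, they were 90.7% (78 genes) and 79.8%. Among the 1237 strongest peaks of the reproducible set they were 20.9% (18 genes) and 13.1%. There the exact interval for the 86 genes, 12.9 to 31.0%, includes the share of all protein-coding genes.

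**Figure D2:**
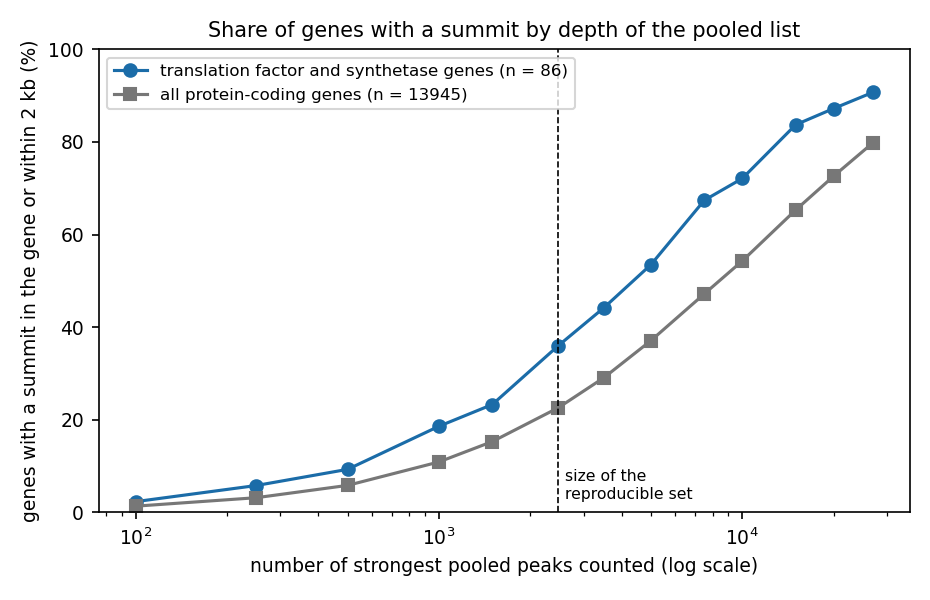
Percent of genes with a summit in the gene or within 2 kb (vertical axis) against the number of strongest pooled peaks counted (log axis), for the 86 translation factor and synthetase genes and for all 13945 protein-coding genes. The line of the 86 genes runs above the other at every depth plotted, with 36.0% against 22.6% at 2475 peaks.

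Initiation factors had reproducible summits at 15 of 44 genes (34.1%), against 22.6% of all protein-coding genes. The exact interval of 20.5 to 49.9% includes that share. The window of eIF2Bbeta, a subunit of the exchange factor that reloads eIF2 with GTP, held a peak at 2703687 to 2704081 on X. It ranked 2 in the pooled list and 5, 2 and 2 in the lists of replicates 1, 2 and 3. Its summit lay 686 bp upstream of the eIF2Bbeta start site and 33 bp upstream of the divergent gene Ugalt, a UDP-galactose transporter. The next was eIF6, which keeps large ribosomal subunits from joining small ones too early, with a peak 102 bp upstream of its transcription start site (TSS). That peak ranked 183, 115 and 82 in the replicates.

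The next initiation factors by signal were eIF1 and eIF3h. The window of eIF1, a factor in start codon selection, held a peak with a signal of 237 that ranked 995, 279 and 345 in the replicates. Its summit lay 332 bp from the eIF1 start and 49 bp from that of the ribosomal protein gene RpL28. At eIF3h, a subunit of the scaffold eIF3, a peak with a signal of 218 lay in an intron 253 bp past a TSS. Another, with a signal of 174, lay in the 5′ UTR 3 bp upstream of an alternative TSS and 311 bp past the 5′ end of the gene. Both overlapped the same replicate peaks, which ranked 1005, 259 and 353. The peaks of eIF1 and eIF3h were thus placed lower in replicate 1 than in the others. Of factors outside the large complexes, eIF2D, which can place an initiator tRNA without eIF2, had a peak (103) 15 bp inside its own start. The subunit-joining factor eIF5B had 1 (102) in an intron, 21987 bp from its nearest TSS. In replicates 1, 2 and 3 the initiation factors scored at 36.4, 27.3 and 29.5% of genes, a mean of 31.1 ± 4.73%, against 22.7 ± 0.187% of all protein-coding genes (SD, n = 3).

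Elongation and release factors scored at 4 of 10 genes (40.0%), against 22.6% of all protein-coding genes. The exact interval of 12.2 to 73.8% includes that share. Each of the 4 had a peak whose nearest TSS was its own. The peak of eEF1gamma, part of the complex that recharges eEF1A with GTP, had its summit 39 bp upstream of the TSS and ranked 131, 88 and 76 in the replicates. At eEF1alpha1, which delivers charged tRNAs to the ribosome, the peak 24 bp upstream of an alternative TSS had a signal of 127. It lay in an intron, 963 bp past the 5′ end of the gene, and ranked 1684, 804 and 821. Its window also held peaks with signals of 208 and 165, both in introns of the neighbor ERp60, which encodes a protein disulfide isomerase of the endoplasmic reticulum.

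The remaining elongation factors with a peak were eEF5 and eEF2. At eEF5, the fly form of the hypusine-bearing factor that helps ribosomes past difficult peptide bonds, the peak in the 5′ UTR had a signal of 163 and ranked 1450, 886 and 826. It lay 31 bp past the 5′ end of the gene and 24 bp upstream of an alternative TSS. A further peak with a signal of 117 in its window lay 31 bp past the start of RpL12. At eEF2, the translocase, a peak with a signal of 143 lay 28 bp past a TSS, in the 5′ UTR, and ranked 1016, 827 and 992. In replicates 1, 2 and 3 the group scored at 50, 70 and 50% of its 10 genes, a mean of 56.7 ± 11.5%, against 22.7 ± 0.187% of all protein-coding genes (SD, n = 3). Only eEF1alpha2 had no top summit in any replicate.

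Cytoplasmic synthetases scored at 7 of 17 genes (41.2%), against 22.6% of all protein-coding genes. The exact interval of 18.4 to 67.1% includes that share. The 2 leading windows held peaks that were nearer other genes. The AlaRS window held a peak with a signal of 326 that lay 94 bp upstream of CG13390 and 4697 bp from the nearest AlaRS TSS, past its 3′ end, and ranked 151, 277 and 278. The SerRS peak, with a signal of 299.6 and replicate ranks of 168, 371 and 299, lay 9 bp upstream of the SerRS start and 1 bp inside the divergent gene CG17260. At IleRS the peak 149 bp upstream of its own TSS had a signal of 190.4 and ranked 1183, 618 and 434. The GlyRS window held a peak with a signal of 149.5 inside the CTP synthase gene Ctps.

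The other cytoplasmic synthetases with a peak were ThrRS (134, 200 bp upstream of its own start), ArgRS (132, nearest CG8578) and AsnRS (113, 49 bp upstream of its own start). All 7 had a top summit in each of the 3 replicates. Per replicate the group scored at 52.9, 47.1 and 58.8% of its genes, a mean of 52.9 ± 5.88%, against 22.7 ± 0.187% of all protein-coding genes (SD, n = 3). AspRS, GlnRS, HisRS and TrpRS had a top summit in 1 or 2 replicates and none in the reproducible set.

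Mitochondrial synthetases scored at 5 of 15 genes (33.3%), against 22.6% of all protein-coding genes. The exact interval of 11.8 to 61.6% includes that share, and most of their peaks belonged to other starts or to few replicates. Only LeuRS-m and CysRS-m had a top summit in all 3 replicates. The LeuRS-m peak, with a signal of 264 and replicate ranks of 272, 290 and 495, lay 935 bp upstream of its start, inside the dynein heavy chain gene Dhc64C. The CysRS-m peak had a signal of 208 and its summit was 96 bp upstream of CG13018, 3678 bp from the CysRS-m start. Of the other 3, ArgRS-m had a peak 149 bp upstream of its own start with a signal of 102, while those counted for SerRS-m (105) and AsnRS-m (100.1) were nearest Nagk and NiPp1. Per replicate the group scored at 20, 20 and 26.7%, a mean of 22.2 ± 3.85% (SD, n = 3), which lay within 1 SD of the 22.7% of all protein-coding genes. With the pooled peaks ranked without replicate 2 the group had 2 scored genes, and without replicate 1 or replicate 3 it had 3. The shares of the 4 roles have overlapping exact intervals, and their difference was not tested.

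**Figure D3:**
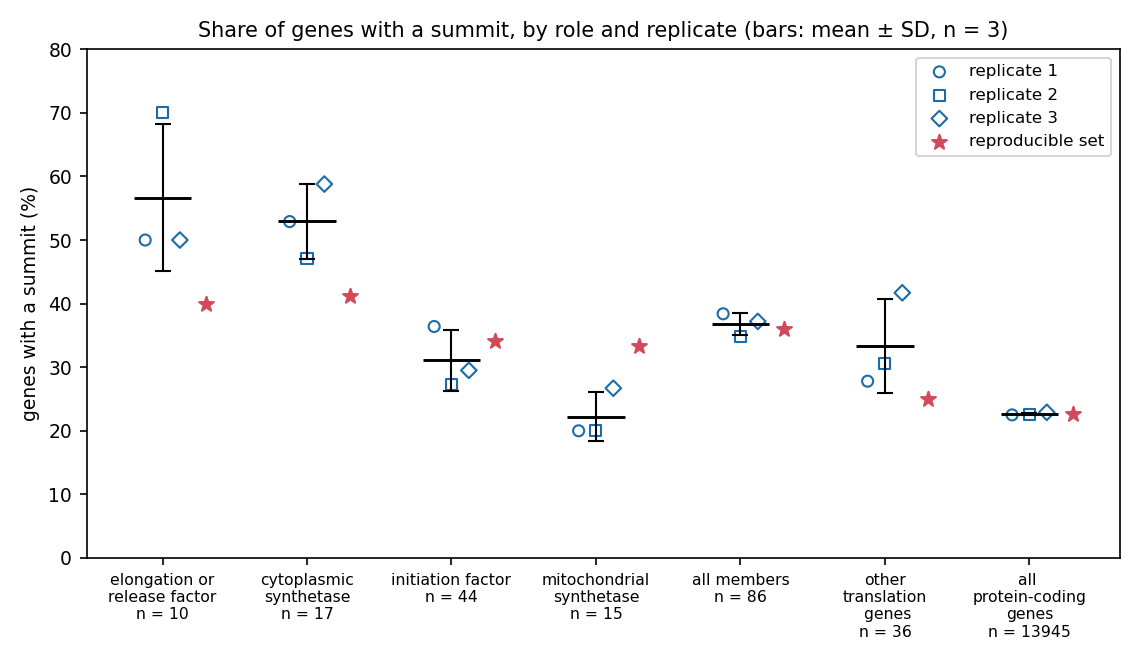
Percent of genes with a summit among each replicate's top 2475 peaks (open symbols, with mean and SD over 3 replicates in black) and in the reproducible set (stars), by role, for all 86 genes, for 36 other translation genes and for all protein-coding genes. Elongation or release factors (56.7%) and cytoplasmic synthetases (52.9%) have the highest means, and mitochondrial synthetases (22.2%) lie at the level of all protein-coding genes (22.7%).

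Many of the peaks were nearer the start of another gene than that of the gene scored. The median distance from the nearest reproducible summit to an own TSS was 184 bp over the 31 genes, with a range of 3 to 21987 bp, against 429 bp over the 3148 protein-coding genes with a summit. With each replicate's own top peaks the median for the scored members was 220, 139 and 103.5 bp in replicates 1, 2 and 3. Median gene length was 2486 bp for the 31 and 3559 bp for the 3148, and its part in this difference was not tested. The nearest summit was within 100 bp for 38.7% of the 31, against 19.8% of the 3148, and within 1 kb for 67.7 and 61.5%. Yet another gene's TSS lay within 1 kb of 28 of the 38 summits. A summit within 1 kb of an own TSS was found for 21 of the 86 genes (24.4%), against 13.9% of all protein-coding genes. When a summit counted only for the gene with the nearest TSS, a criterion chosen after seeing the data, 14 of the 86 genes (16.3%) scored, against 12.4% of all protein-coding genes. The margin over background was therefore smaller by this criterion, and 17 of the 31 genes had only summits nearer another start. Among the 3148 protein-coding genes with a summit, 1730 had one nearest their own start, a larger share than the 14 of the 31. Summits nearer another start were thus common there too, but more so among the 31. The difference was not tested, and no interval was computed for the shares by this criterion. The 14 were 6 initiation factors, 4 elongation factors, 3 cytoplasmic synthetases and ArgRS-m.

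**Figure D4:**
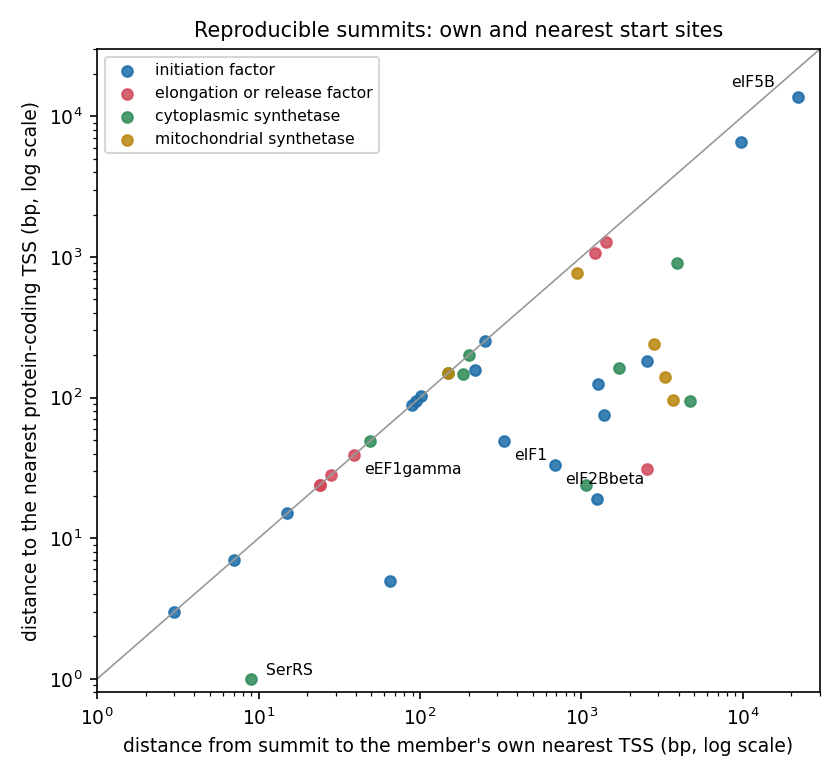
Distance from each of the 38 reproducible summits to the nearest TSS of the gene scored (horizontal) and to the nearest protein-coding TSS (vertical), both in bp on log axes and colored by role. The 15 summits on the diagonal are nearest an own start, and the 23 below it are nearer another gene, such as that of eIF2Bbeta at 686 and 33 bp.

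Gene arrangement differed between these genes and the rest. A start within 1 kb of that of a divergently transcribed neighbor was found for 58.1% of the 86 genes, against 36.2% of all protein-coding genes. Among genes so arranged, 20 of 50 (40%) of the 86 scored, against 32.6% of all. Among the others 11 of 36 (30.6%) scored, against 16.9%. Shares were thus above background in both arrangements. Below 2500 bp in length 38.1% of the 86 genes scored, against 15.7% of all, and above that length 34.1%, against 31.2%. The part of gene arrangement and length in the overall share was not tested. Protein-coding genes were not matched for expression or open chromatin, so binding by NK7.1 and general enrichment of open promoters cannot be told apart. No summit of the 38 fell in a coding exon: 8 lay in a 5′ UTR, 11 in an intron and 19 outside genes.

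Within the large initiation complexes the peaks were scattered over subunits. The counts per complex are small and were not tested against the 22.6% of all protein-coding genes. Of the 3 eIF2 subunits, which carry the initiator tRNA, only eIF2beta scored, with a peak of signal 185 that lay 182 bp upstream of Gcn5. The window of eIF2gamma held a pooled peak with a signal of 89.3, just under the reproducible set, and that of eIF2alpha one with 74.3 at the start of eIF4H1. Of the 5 eIF2B subunits, eIF2Bbeta and eIF2Bgamma scored, and the eIF2Bgamma peak (179) lay 19 bp upstream of Vha36-1. No eIF2 or eIF2B subunit had a reproducible summit nearest its own start.

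The eIF3 scaffold, with 16 genes including paralogs, had 5 with a summit, beside 22.6% of all protein-coding genes. At eIF3c the peak 7 bp upstream of its own start had a signal of 172 and ranked 1529, 476 and 795 in the replicates. The peak at eIF3a (119) lay 65 bp from its start and 5 bp from that of the divergent CG1074. Those counted for eIF3g1 (116) and eIF3d1 (103) lay 75 bp from Smyd3 and 124 bp from GILT2. Only eIF3h and eIF3c were thus nearest their own peaks. For eIF3k a pooled peak with a signal of 86.9 lay 45 bp from its start, just below the set, while eIF3b, eIF3e, eIF3f1, eIF3i, eIF3j, eIF3l and eIF3m had pooled signals of 27.1 to 60.7.

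Paralogs within this group differed. For eIF3d, eIF3f and eIF3g the second copies, eIF3d2, eIF3f2 and eIF3g2, had no pooled summit at all, whereas eIF3d1, eIF3f1 and eIF3g1 had pooled signals of 103, 55.8 and 116. Within 1 kb of an own TSS, eIF3d1 and eIF3f1 had 45.5 and 55.8, and eIF3g1 had no pooled summit. Of the 7 genes of the eIF4E family, which bind the mRNA cap, only eIF4EHP, a cap-binding repressor of translation, had reproducible summits. The eIF4EHP gene spans 45884 bp and the others 736 to 3791 bp, so far more sequence was searched for eIF4EHP. The part of gene length in this difference was not tested. The intronic peak of eIF4EHP had a signal of 174 and lay 9781 bp from a TSS. Its other peak (146) lay 220 bp upstream of a start, with that of CG18428 at 156 bp. The main cap-binding protein gene eIF4E1 had pooled peaks of up to 59.6, and eIF4E3, eIF4E5 and eIF4E6 of up to 38.5, 53.4 and 65.1. No pooled summit was found for eIF4E4 or eIF4E7. A reproducible peak with a signal of 194 lay 2294 bp from eIF4E1, just outside the window, and 1 with a signal of 159 lay 2295 bp from IleRS-m. The farthest inside were those counted for CysRS-m at 1512 bp and AsnRS-m at 1691 bp, and the weaker of the AsnRS summits at 1701 bp.

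The remaining paralogs gave few reproducible peaks. The elongation factor eEF1alpha2 had a pooled signal of 47.7 beside the 208 of eEF1alpha1. Within 1 kb of an own TSS these were 30.5 and 127. The scaffold genes eIF4G1 and eIF4G2 had 45.2 and 67.0, and the helicase cofactors eIF4H1 and eIF4H2 had 74.3 and 37.6. The release factors eRF1 and eRF3 had 85.3 and 66.3. None of these last 6 reached the reproducible set, although eRF1 ranked 1650 in replicate 2 and had no overlapping peak in replicate 3 at that site. The helicase eIF4A, which eIF4G recruits, had a peak (115.2) in its 5′ UTR, 741 bp past the 5′ end of the gene and 89 bp upstream of an alternative TSS, with replicate ranks of 1843, 2003 and 1194.

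Cytoplasmic and mitochondrial enzymes for the same amino acid were also set side by side. Of 12 amino acids with both forms among the 86 genes, both scored for Arg, Asn and Ser, the cytoplasmic form alone for Ala and Ile, and the mitochondrial form alone for Cys and Leu. For Asp, Met, Trp, Tyr and Val neither did. Pooled signals in the windows of LeuRS-m and LeuRS were 264 and 29.1, and those of CysRS-m and CysRS were 208 and 53.6. The opposite order was seen for AlaRS-m (42.3) and AlaRS (326). The AlaRS and CysRS-m peaks lay nearest the starts of CG13390 and CG13018. Among pooled summits within 1 kb of an own TSS, both orders were reversed. There AlaRS had 30.3 and AlaRS-m 42.3, and CysRS-m had 38.7 and CysRS 53.6. LeuRS-m (264) and LeuRS (27.5) kept their order, although the LeuRS-m peak was nearest Dhc64C. MetRS-m and ValRS-m had no pooled summit.

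**Figure D5:**
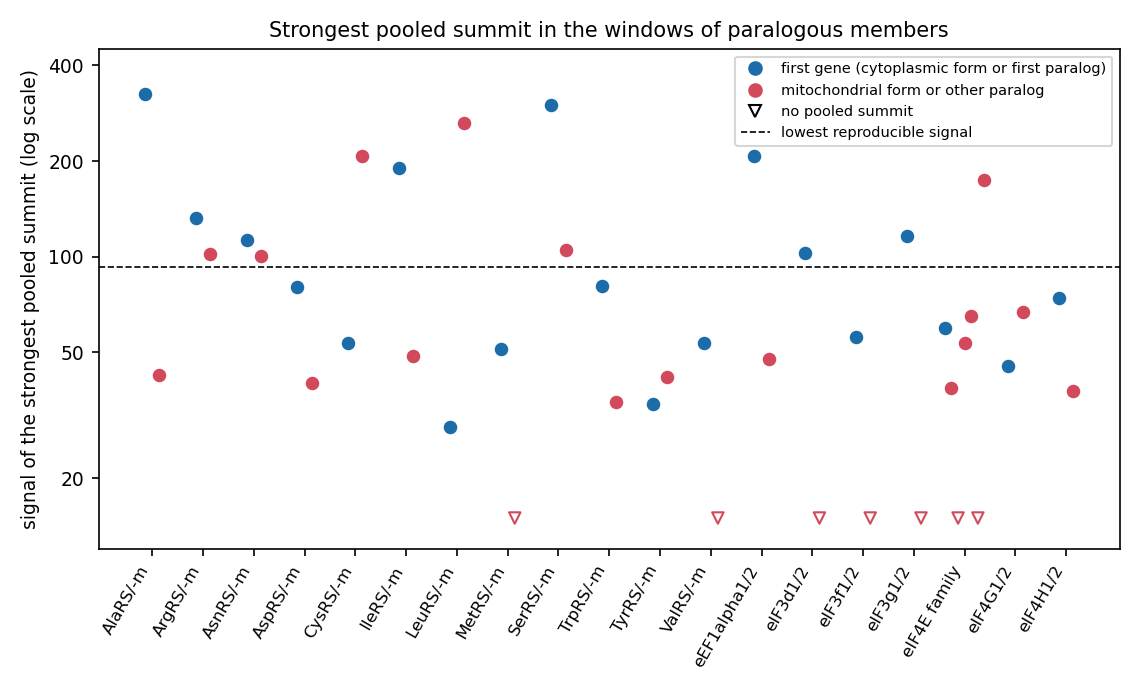
Signal of the strongest pooled summit in the windows of paralogous genes and of cytoplasmic and mitochondrial synthetases for the same amino acid (log axis); triangles mark genes with no pooled summit and the dashed line the lowest reproducible signal, 92.5. Both forms of ArgRS, AsnRS and SerRS lie above the line, and the second copies of eIF3d, eIF3f and eIF3g have no summit. A summit counts wherever it lies in the window, also where another gene's start is nearer.

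The weakest scored genes and the strongest unscored ones bordered each other. The lowest were eIF2A (94.5), AsnRS-m (100.1) and ArgRS-m (102). The eIF2A peak lay in its 5′ UTR, 130 bp past the 5′ end of the gene and 95 bp upstream of an alternative TSS, and ranked 4998, 3688 and 1517 in replicates 1, 2 and 3, so only replicate 3 placed it among its top 2475. Just outside were PheRS-m, whose peak 37 bp from its own start had a signal of 91.0 and ranked 2859, 5672 and 3180, eIF2gamma and eIF3k. At the other end, 8 genes had no pooled summit, and 2 of them, the helicase cofactor eIF4B and eIF4E4, had none in any list. The nearest reproducible peak lay 43535 bp from eIF4E4 but 4963775 bp from eIF4B, so the whole region around eIF4B lacked reproducible peaks.

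Translation genes outside the naming rule scored closer to background. Of 36 such genes, which cover regulators, ribosome rescue and mitochondrial translation, 9 (25%, exact interval 12.1 to 42.2%) had a reproducible summit, against 22.6% of all protein-coding genes. Within 1 kb of an own TSS it was 5 (13.9%), against 13.9% of all. Their mean over the replicates' own top peaks was 33.3 ± 7.35%, against 22.7 ± 0.187% (SD, n = 3). The strongest peak was at Lk6, a kinase of eIF4E, with a signal of 1081 and replicate ranks of 12, 12 and 6. Its summit lay inside the gene, 962 bp upstream of an internal TSS. The translational repressor Thor, the fly 4E-BP, had a peak (95.8) inside the gene, 12 bp upstream of an internal TSS. The poly(A)-binding protein gene pAbp had 2 summits, the stronger with a signal of 154. The kinase gene S6k had a peak (95.9) inside the gene, 3223 bp past a TSS, and Tctp had 1 with a signal of 118.

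Synthetase subunits appeared in that list too. The window of alpha-PheRS held a peak (187) 76 bp from CG17982, and that of GluProRS, which encodes a fused enzyme for 2 amino acids, held 1 with a signal of 150.5 at AP-1sigma. The peak of GatA (183), a subunit of the mitochondrial amidotransferase, was nearest P5cr, and that of the ribosome rescue gene HBS1 (139) was nearest Rap1. These 4 were again nearer another start.

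Sequence words at the summits were counted on both strands within 50 bp of each summit. TATCGATA, the DNA replication-related element (DRE) found in many promoters of generally active fly genes, was present at 4 of the 38 summits (10.5%), against 1.78% of all 2475. GGTCACAC, the core of another such promoter element known as motif 1, was at 2 (5.26%), against 0.889%. The homeodomain words TAATTA and TAATTG were at 2 (5.26%) and 1 (2.63%), against 6.95 and 9.49%, and the GATA-type word AGATAA was at 1 (2.63%), against 7.35%. The first 5 letters of the homeodomain words are the same, and no word contains another. Within 100 bp AGATAA was at 6 of the 38 (15.8%), against 13.5% of all, so its lower share did not hold in the wider window. The counts at the 38 summits are small and no test was made. Of the 2475 summits, 1028 lay within 250 bp of a TSS, and they were not matched to the 38 for this distance. The part of position in these shares was not tested. A match is a description of letters only.

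The summits with TATCGATA lay near eEF1gamma, eIF1, eIF3a and eIF2A, and the sequences show how close the word came to the summit. At eEF1gamma (chr3R:29220120-29220149, plus strand) it was centered 2 bp from the summit. At eIF1 (chr3L:3223034-3223063, plus strand), beside the RpL28 start, it was 40 bp away. At eIF3a (chr3R:4433915-4433944, minus strand) it lay 30 bp away. At eIF2A it was 10 bp away in the 5′ UTR, and a GGTCACAC word followed at 39 bp. Capitals mark the word.
eEF1gamma site: ggcctaggaaaTATCGATAtatcgccgtaa
eIF1 site: ggcagggcaacTATCGATAagcatttcgta
eIF3a site: tcggcctgaacTATCGATAacgcagccagg

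The TAATTA word was present at the eIF3d1 peak (chr3R:23678721-23678821, plus strand), 124 bp from GILT2, and at the weaker eIF4EHP peak (chr3R:24109130-24109230, minus strand). Both are shown beside the intronic peak of eIF3h (chr2L:5052477-5052577, minus strand), which held none of the words and had 52.5% G and C over the stretch printed, for contrast in base composition. GC content within 50 bp of the 38 summits ranged from 20.8 to 60.4%, with a median of 37.1%, against 35.6% over all reproducible summits. It was 46.5% at the 15 summits nearest an own start and 34.7% at the 23 nearer another gene. Over all 1028 reproducible summits within 250 bp of a TSS it was 38.6%.
eIF3d1: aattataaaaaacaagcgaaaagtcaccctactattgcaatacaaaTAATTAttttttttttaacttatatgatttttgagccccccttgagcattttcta
eIF4EHP: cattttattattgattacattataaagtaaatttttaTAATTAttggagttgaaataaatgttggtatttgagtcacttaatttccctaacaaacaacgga
eIF3h: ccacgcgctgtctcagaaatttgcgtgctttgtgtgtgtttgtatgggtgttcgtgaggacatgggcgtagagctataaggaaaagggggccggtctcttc

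In the promoters, taken as 250 bp before to 50 bp after each gene's 5′ end, TATCGATA was present in 20 of the 86 genes (23.3%), against 9.36% of all protein-coding genes. It was in 9 of the 31 genes with a reproducible summit (29%) and in 11 of the 55 without (20%). Among all 3148 protein-coding genes with a summit it was in 11.9%. GGTCACAC was in 10 of the 86 promoters (11.6%), against 7.70% of all, with 2 of the 31 (6.45%) and 8 of the 55 (14.5%). For TAATTA, for TAATTG and for AGATAA the shares of the 86 genes, 23.3, 27.9 and 17.4%, were near those of all protein-coding genes, 20.4, 25.2 and 18.7%.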

How the data were processed

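The authors deposited narrowPeak lists on dm6 and dm3 for each replicate, for the pooled alignments and for the set thresholded by IDR, per the text listings deposited with the libraries. Peaks had been called against a control. The aligner and caller were not given in the sources used here. Each peak's signal value is the authors' deposited score. The deposited −log10 q-value was capped at its largest value, so peaks were ranked by the score. The dm3 lists were not used. Lists were compared by rank, since the files give no read counts and signal values may scale with depth.

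Genes and TSSs came from the Ensembl release 115 BDGP6 annotation, and sequences from the Release 6 assembly of RefSeq, in which all 86 genes have the same start and end. Summits were counted for each gene as described, with Python 3.11.15, NumPy 2.4.6, pandas 2.3.3, SciPy 1.17.1 and Matplotlib 3.10.9. The counting was tested on simulated data. A peak overlapped a replicate's peak when they shared at least 1 bp. With 1 group, no test was run: counts stand beside the share of all protein-coding genes, with exact intervals, and beside mean and SD over replicates, which the labels number as biological replicates. The members and gene lists were chosen with earlier results of these data known. Of 38 other translation genes listed, 36 were in the annotation. Genes named were the 4 with the strongest reproducible signal in each role, the 3 weakest and the 3 strongest without a reproducible summit. Paralog sets, synthetase pairs, subunits of eIF2, eIF2B and eIF3, and other translation genes with a summit were also named. Others, chosen after their values were seen, complete short groups. Alternatives were other windows, the 1237 strongest reproducible peaks, and sets made without each replicate. Such a set took the pooled peaks, called on all 3 libraries, and ranked them by the remaining replicates only.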

Additional observations from a re-analysis of the deposited data

How the results depend on the processing

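The count of 31 genes was 18 with the 1237 strongest reproducible peaks and 14 with the nearest-start criterion, which was chosen after seeing the data. It was 26 to 28 when each replicate was left out of the ranking of pooled peaks. The pooled peaks themselves were still those called on all 3 libraries. The share of all protein-coding genes was then 19.2 to 19.4%. Leaving out any replicate lost 5 genes, among them SerRS-m and eIF2A. AspRS and eRF1 were gained without replicate 3. The 1237 strongest gave 8 initiation factors and 4 cytoplasmic synthetases. Mitochondrial synthetases, 5 of 15 as reported, numbered 3 within 1 kb of the gene body and 2 (13.3%) within 1 kb of a TSS. They numbered 2 (13.3%) with the 1237 strongest and 2 to 3 without a replicate. Other translation genes numbered 15 of 36 within 5 kb and 5 (13.9%) within 1 kb of a TSS. The share of all protein-coding genes was 18.6% within 1 kb of the gene body and 32.9% within 5 kb. It was 13.9% within 1 kb of a TSS and 13.1% with the 1237 strongest. With the top 1237 peaks per replicate, 18.0 genes on average and 14 in all replicates had a top summit. With the top 4950, 37 did in all replicates. The share of all protein-coding genes was not counted at these depths per replicate. The median distance of 184 bp was 311 bp from the 5′ end only and 276 bp with the 1237 strongest. Summits with TATCGATA numbered 2 within 25 bp and 2 in the 1237 strongest, those with GGTCACAC 0 in both, and those with TAATTA 1 in the 1237 strongest. AGATAA was at 0 within 25 bp and 6 within 100 bp, and TAATTG at 5 within 100 bp. Within 25 bp TATCGATA was at 5.26%, against 0.848% of all reproducible summits, while GGTCACAC and AGATAA were at 0.404 and 3.88% of all. Within 100 bp AGATAA was at 15.8%, against 13.5% of all, and TAATTG at 13.2%, against 18.3%. The lower share of AGATAA within 50 bp was thus not seen within 100 bp. Shares of all summits were not counted for words in the 1237 strongest. The cause of these changes was not tested beyond what each setting removes or adds. No paired analysis was possible because there is 1 group.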

Other observations

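By chromosome arm, the genes with a reproducible summit were 7 of 12 on 2L, against 21.6% of all protein-coding genes there, 7 of 21 on 2R (21.5%), 7 of 22 on 3L (22.8%) and 7 of 20 on 3R (24.3%). On X they were 3 of 10 (22.5%), among them eIF2Bbeta and ArgRS, and the 1 member on chromosome 4, eIF4G1, had none (12.5%). These counts are small and were not tested.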
